A study of Mus musculus with 12 samples.

Results

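10 genes that mark basophils, eosinophils and mast cells were followed in sorted hematopoietic stem cells (HSCs), the bone marrow cells that renew all blood lineages. The genes were chosen by name as Prg2, Prg3, Epx, Cpa3, Mcpt8, Gzmb, Ms4a2, Fcer1a, Il5ra and Cebpe. All 10 were found among the 27179 genes of the count table, and all 10 passed the filter on low counts. Total RNA was sequenced from 12 C57BL/6J mice, 3 for each of 4 genotypes. Group WT is wild-type (libraries WT2, WT3 and WT4), and group E carries the Emu-myc transgene (E1, E2 and E3). Group C is Casp1 -/- Casp11 -/- (C1, C2 and C3), and group CE is Emu-myc on that double knockout (CE1, CE2 and CE3). In Emu-myc mice, Myc is driven by the enhancer of the immunoglobulin heavy chain locus, which is strongest in B-lineage cells. Casp1 and Casp11 encode inflammatory caspases, and every C and CE mouse carries the label of both deletions. The labels give no age, sort gate or batch.

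Basophils, eosinophils and mast cells arise in the marrow from progenitors that express GATA factors, and arm themselves with granules of toxic basic proteins and proteases. Basophils and mast cells carry the high-affinity receptor for IgE, and eosinophils depend on interleukin-5. Some granule genes are transcribed at the progenitor stage, before mature granules form. In bulk RNA of a sorted population, fewer cells of a type and less RNA per cell cannot be told apart.

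Libraries held 24529611 to 34065910 counts. Levels are given in CPM, counts scaled to the effective size of each library. All 14 HSC markers, among them Procr, Hlf and Mecom, were detected. Their summed level was 1090 to 1240 CPM in WT, 1200 to 1360 in E, 1240 to 1320 in C and 1430 to 1500 in CE. Casp1 was at 29.8 to 47.8 CPM in WT and E and at 5.10 to 6.76 CPM in C and CE. Casp4, the annotated name of Casp11, was at 12 to 17.2 CPM in WT and E and at 7.06 to 13.7 CPM in C and CE. These Casp4 ranges overlap, so its level does not check the Casp11 part of the label. Myc was at 393 to 447 CPM in WT and at 424 to 448 CPM in E. These ranges overlap, so its level does not check the transgene label of E. In C it was at 319 to 336 CPM and in CE at 344 to 409 CPM, with every CE mouse above every C mouse. C1 and C3 stood apart with 22900 and 21247 genes detected, against 17310 to 18863 in the other libraries. The summed level of 4 Y-linked transcripts was 91.3 to 121 CPM in the C mice, CE1 and CE2. It was at most 0.263 CPM in CE3, WT and E. Sex, read from those transcripts, therefore changes with the caspase genotype in 11 of the 12 mice. In those 11 mice the effects of sex and of genotype cannot be told apart.

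The promoters of a pair of eosinophil granule genes, a protease and an IgE receptor chain show what the genes share and do not share in sequence, outside the expression values. RefSeq promoter windows (GRCm38.p6, the assembly also called mm10) were matched for 8 of the 10 genes; Prg2 and Cebpe were not matched. Each window holds the 250 bases before the transcript start that the RefSeq table uses, printed 5′ to 3′ on the strand of the gene. That start can lie inside the annotated gene, whose outer limits are the positions given for each gene. Of the printed windows, 19 bases of Prg3, 28 of Cpa3 and 3 of Fcer1a, and none of Epx, fall inside the gene. They lie at chr2:84987965-84988214 (plus strand) for Prg3, chr11:87875537-87875786 (minus) for Epx, chr3:20242182-20242431 (minus) for Cpa3 and chr1:173227230-173227479 (minus) for Fcer1a. Capitals mark GATAA, the core of the sites that GATA factors bind, its reverse complement TTATC, and in Fcer1a also TTGCNNAA, a form of the C/EBP site.
Prg3: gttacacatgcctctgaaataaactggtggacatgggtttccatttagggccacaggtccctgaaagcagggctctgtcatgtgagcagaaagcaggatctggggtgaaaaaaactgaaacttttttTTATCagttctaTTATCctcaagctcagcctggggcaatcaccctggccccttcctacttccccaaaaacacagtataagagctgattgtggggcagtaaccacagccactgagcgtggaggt
Epx: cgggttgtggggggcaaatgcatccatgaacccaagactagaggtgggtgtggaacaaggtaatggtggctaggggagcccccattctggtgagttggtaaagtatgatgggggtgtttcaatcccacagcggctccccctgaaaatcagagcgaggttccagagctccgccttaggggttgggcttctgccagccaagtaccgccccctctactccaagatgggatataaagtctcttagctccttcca
Cpa3: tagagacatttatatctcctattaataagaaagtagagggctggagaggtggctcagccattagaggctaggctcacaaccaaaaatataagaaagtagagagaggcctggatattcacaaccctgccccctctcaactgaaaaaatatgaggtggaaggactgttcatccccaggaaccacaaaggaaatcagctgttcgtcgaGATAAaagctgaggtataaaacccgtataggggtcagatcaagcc
Fcer1a: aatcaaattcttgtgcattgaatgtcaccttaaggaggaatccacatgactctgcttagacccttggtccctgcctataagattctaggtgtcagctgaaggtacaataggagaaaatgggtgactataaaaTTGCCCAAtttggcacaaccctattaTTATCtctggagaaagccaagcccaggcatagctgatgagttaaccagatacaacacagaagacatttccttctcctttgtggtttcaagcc
GATAA was present on either strand in 5 of the 8 windows, those of Prg3, Cpa3, Ms4a2, Fcer1a and Il5ra. It was present in 23% of 27025 RefSeq promoters of the same length. Prg3 held 2 copies and Cpa3 and Fcer1a 1 copy each, while the Epx window held none. Ms4a2 held 3 copies, of which 2 lie in the 71 bases of its window that fall inside the annotated gene. TTGCNNAA was found in 1 of the 8 windows (Fcer1a) and in 9.55% of all promoters. GAGGAA, a core of ETS sites such as that of PU.1, was found in 2 of the 8 (Fcer1a and Mcpt8) and in 23.1% of all promoters. The whole Mcpt8 window lies inside the annotated gene. None of the matches of different motifs overlapped. A match describes letters in a window and shows no binding.

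Averaged over the 12 libraries, Prg2, Mcpt8 and Cpa3 were the most abundant of the genes per unit length. These averages were 38.2, 31.8 and 31.7 CPM per kilobase of the longest transcript. Cebpe followed at 14.3 CPM per kilobase. Prg3 (2.74), Epx (2.22), Gzmb (2.07) and Ms4a2 (1.53 CPM per kilobase) formed a lower tier, and Fcer1a (0.730) and Il5ra (0.148 CPM per kilobase) were lowest. The order differed between groups. Prg2 led in WT, at 85.5 CPM per kilobase against 40.5 for Cpa3 and 38.9 for Mcpt8. Mcpt8 led in E, at 43.6 CPM per kilobase against 37.8 for Prg2, and this rests on E1. Cpa3 led in C, at 34.4 CPM per kilobase against 25.8 for Mcpt8 and 18.5 for Prg2. In CE, Prg2 at 11.2 CPM per kilobase came after Cpa3 (24.1), Mcpt8 (19) and Cebpe (12.9). Fcer1a rested on 5 to 88 counts in a library and Il5ra on 8 to 24 counts, so differences in these 2 genes are the least precise. The summed level of the 10 genes ranged over the mice from 168 to 276 CPM for WT, 108 to 194 for E, 99.0 to 133 for C and 82.0 to 92.1 for CE.

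**Figure D1:**
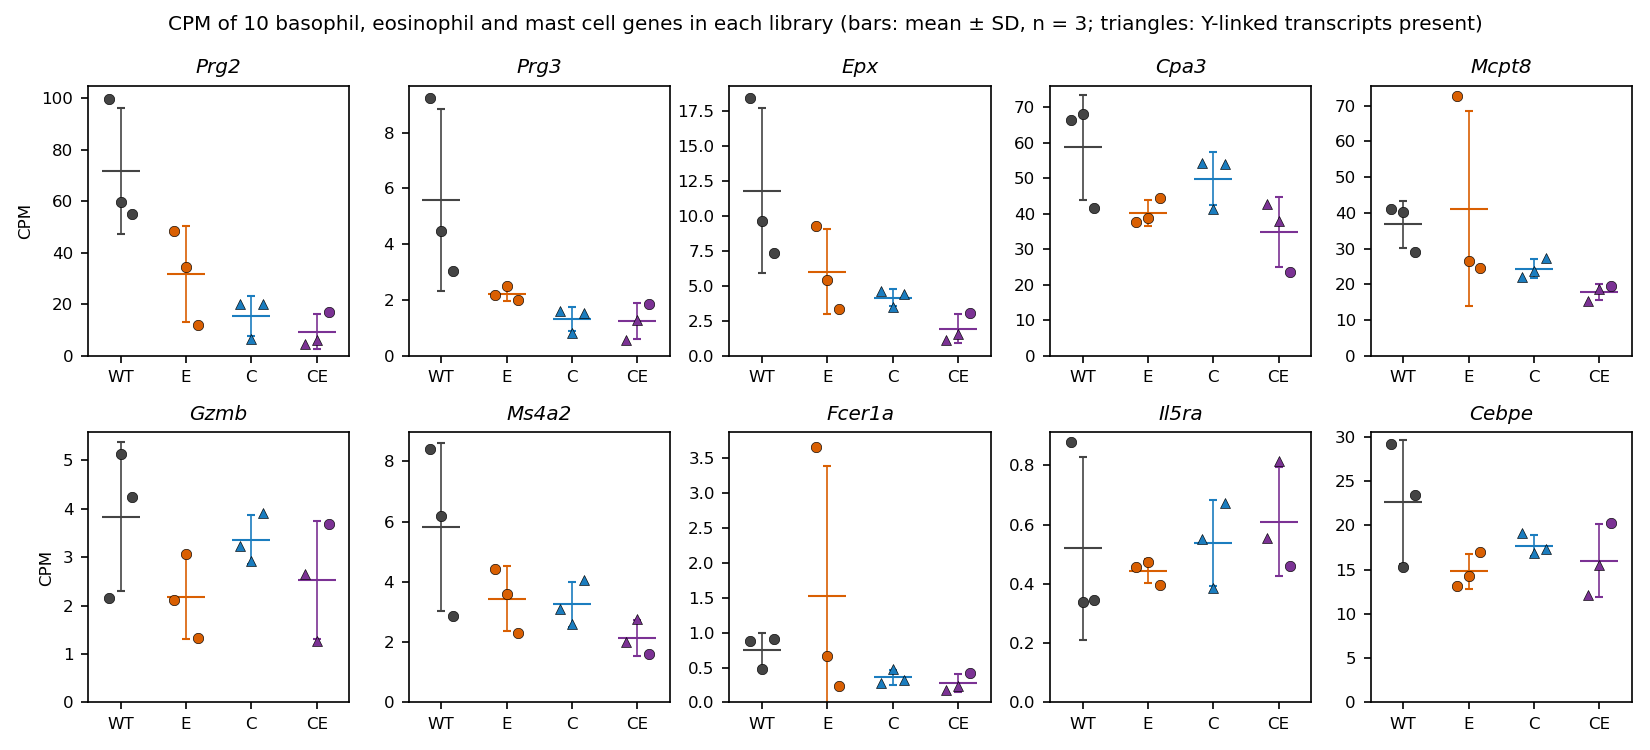
Level of each of the 10 genes (CPM, linear axes from 0, 1 panel per gene) in the 12 mice by group, with 1 point per mouse, bars for mean ± SD (n = 3) and triangles where Y-linked transcripts are present. Prg2, Prg3 and Epx step down from WT to CE in the mean, Mcpt8 and Fcer1a have their highest point in group E (72.6 and 3.67 CPM), and Il5ra stays below 1 CPM throughout.

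The 3 eosinophil granule genes were highest in wild-type mice and lowest in the knockout groups. Prg2 (gene 19074, chromosome 2, 84980461 to 84983632) encodes major basic protein, the crystalline core of the eosinophil granule. Prg2 was at 99.8, 59.8 and 55.2 CPM in WT2, WT3 and WT4, at 48.5, 34.6 and 11.9 in E1, E2 and E3, at 20.1, 6.41 and 20 in C1, C2 and C3, and at 4.67, 6.28 and 17.2 in CE1, CE2 and CE3. All 3 WT mice lay above every other mouse, and E3 fell within the range of the C mice. The mean (± SD, n = 3) was 71.6 ± 24.5 CPM for WT, 31.7 ± 18.5 for E, 15.5 ± 7.88 for C and 9.40 ± 6.84 for CE.

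Prg3 (gene 53856, chromosome 2, 84988196 to 84996559) is the neighbouring paralog of Prg2 and lies 4564 bases beyond it. Prg3 was at 9.24, 4.49 and 3.03 CPM in WT2, WT3 and WT4, at 2.17, 2.5 and 2.02 in E1, E2 and E3, at 1.62, 0.834 and 1.54 in C1, C2 and C3, and at 0.588, 1.29 and 1.87 in CE1, CE2 and CE3. Here no C or CE mouse reached the lowest WT or E mouse. As the counting of reads shared by similar copies is not given in the sources used here, the split between Prg2 and Prg3 is uncertain. Epx (gene 13861, chromosome 11, 87863997 to 87875536) encodes eosinophil peroxidase. Epx was at 18.4, 9.66 and 7.32 CPM in WT2, WT3 and WT4, at 9.29, 5.41 and 3.32 in E1, E2 and E3, at 4.62, 3.46 and 4.40 in C1, C2 and C3, and at 1.11, 1.60 and 3.09 in CE1, CE2 and CE3. The CE mice lay below all mice of the other groups, and the E mice overlapped both WT and C.

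The granule proteases did not share that order. Cpa3 (gene 12873, chromosome 3, 20215616 to 20242209) encodes mast cell carboxypeptidase A, a metalloprotease stored in mast cell and basophil granules. Cpa3 was at 66.4, 68.0 and 41.6 CPM in WT2, WT3 and WT4, at 37.7, 38.8 and 44.4 in E1, E2 and E3, at 54.4, 41.3 and 53.9 in C1, C2 and C3, and at 42.8, 38.1 and 23.7 in CE1, CE2 and CE3. WT and C were both above E and CE in the mean, at 58.7 ± 14.8 and 49.9 ± 7.45 against 40.3 ± 3.59 and 34.9 ± 9.96 CPM (SD, n = 3 each), with overlapping mice. Mcpt8 (gene 17231, chromosome 14, 56082163 to 56085499) encodes a serine protease that marks mouse basophils. Mcpt8 was at 41.0, 40.2 and 29.1 CPM in WT2, WT3 and WT4, at 72.6, 26.5 and 24.6 in E1, E2 and E3, at 22.2, 23.8 and 27.3 in C1, C2 and C3, and at 15.4, 18.7 and 19.7 in CE1, CE2 and CE3. E1 was far above all other mice, and CE was below every other group. Gzmb (gene 14939), the apoptosis-inducing protease granzyme B, lies 173337 bases from Mcpt8 in the same protease cluster, and reads shared by similar copies there could be split as well. Its level was 1.26 to 5.14 CPM over the 12 mice, with means (± SD, n = 3) of 3.84 ± 1.53 for WT, 2.18 ± 0.863 for E, 3.36 ± 0.509 for C and 2.53 ± 1.22 for CE.

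The receptor genes were low. Ms4a2 (gene 14126, chromosome 19, 11615517 to 11623790) encodes the beta chain of the IgE receptor, which amplifies its signal. Ms4a2 was at 8.40, 6.18 and 2.86 CPM in WT2, WT3 and WT4, at 4.42, 3.60 and 2.29 in E1, E2 and E3, at 3.10, 2.59 and 4.05 in C1, C2 and C3, and at 2.01, 2.78 and 1.61 in CE1, CE2 and CE3. WT4 fell among the mice of the other groups, so the higher WT mean of 5.81 ± 2.79 CPM (SD, n = 3) rests on WT2 and WT3. Fcer1a (chromosome 1, 173221269 to 173227232), the IgE-binding alpha chain, was at 3.67 CPM in E1 and at 0.173 to 0.909 CPM in the other 11 mice. Il5ra, the alpha chain of the interleukin-5 receptor, had group means of 0.520 CPM (WT), 0.443 (E), 0.538 (C) and 0.609 (CE). Il5ra differed between groups by less than the spread between mice. Cebpe (chromosome 14, 54710363 to 54712174) encodes the transcription factor C/EBP epsilon, needed for late granule formation in neutrophils and eosinophils. Cebpe averaged (± SD, n = 3) 22.6 ± 6.99 CPM for WT, 14.8 ± 1.97 for E, 17.7 ± 1.18 for C and 16.0 ± 4.14 for CE, and only WT2 at 29.2 and WT4 at 23.4 CPM exceeded all mice of the other groups.

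**Figure D2:**
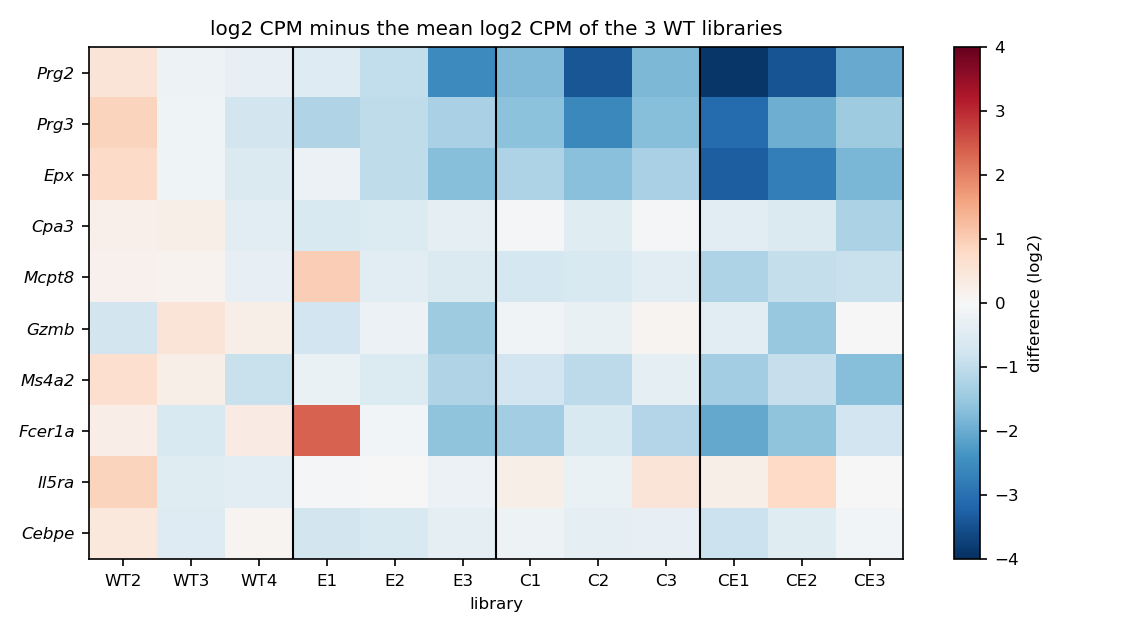
Each gene's log2 CPM minus the mean of its 3 WT libraries (colour scale, log2), with genes in rows and libraries in columns ordered by group. Prg2, Prg3 and Epx are below the WT mean in all E, C and CE columns and lowest in CE1, and E1 is above it in Mcpt8 and Fcer1a.

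The transgene with caspases intact was addressed by E against WT. Prg2, Prg3, Epx, Cpa3, Ms4a2, Cebpe, Gzmb and Il5ra had lower values in E, but none of the 10 genes passed the adjusted threshold. Among all 14473 tested genes, 0.0829% passed. The log2 differences, with edgeR's quasi-likelihood test and Benjamini-Hochberg adjustment throughout, were -1.33 for Prg3 (SE 0.40, adjusted p = 0.487), -1.18 for Prg2 (SE 0.51, adjusted p = 0.747) and -0.98 for Epx (SE 0.39, adjusted p = 0.720). The log2 differences of Cpa3, Ms4a2, Cebpe and Gzmb were -0.54, -0.76, -0.61 and -0.81. The adjusted p of Il5ra was 0.926. At an unadjusted p under 0.05, 6 of the 10 were lower, against 3.26% of all tested genes. Prg2 and Prg3 had groups that did not overlap, with E below WT, against 3.56% of all genes. The median log2 difference of the 10 genes was -0.69, against -0.002 over all tested genes.

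Mcpt8 and Fcer1a had higher means in E than in WT, and both rest on E1. Their log2 differences were 0.16 (SE 0.30, adjusted p = 0.926) and 1.0 (SE 0.68, adjusted p = 0.775). Without E1 they turned to -0.51 and -0.67. Median values also depended on WT2, and without it the median was -0.41. WT2 held the highest level of Prg2, Prg3, Epx, Ms4a2, Il5ra and Cebpe. The share of all genes that were highest in WT2 was not counted.

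On the knockout background, CE against C compared 6 mice that share no library with E against WT. Of these 6 only CE3 lacked Y-linked transcripts, so sex was not balanced between CE and C. Epx was lower in all 3 CE mice than in any C mouse, with a log2 difference of -1.10 (SE 0.42, adjusted p = 0.777), and so was Mcpt8 at -0.45 (SE 0.31). None of the 10 passed, against 0.207% of all genes, and their adjusted p lay between 0.777 and 0.999. Groups did not overlap in those 2 genes, against 7.79% of all genes with CE wholly below C. At an unadjusted p under 0.05, 2 of the 10 (Epx and Cpa3) were lower, against 3.08% of all genes. Prg2 was at -0.72 (SE 0.53), Cpa3 at -0.52 (SE 0.21), Ms4a2 at -0.61 (SE 0.35) and Prg3 at -0.08 (SE 0.44) on the log2 scale. Gzmb, Fcer1a and Cebpe were lower in value and Il5ra higher, each with an adjusted p of 0.999. The median log2 difference was -0.43, against 0.008 over all genes. With a term for Y-linked transcripts the median of the 10 was -0.51. That fit called 9 of 14473 genes and none of the 10. Without C1 and C3, which leaves C2 alone in group C, Prg2 and Prg3 turned to 0.55 and 0.58.

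The mean of both transgene comparisons (E and CE against WT and C) set 6 mice against 6. Cpa3 and Epx had the smallest p of the 10, and again none passed, against 0.539% of all genes. Epx was lower by a log2 difference of -1.04 (SE 0.29, adjusted p = 0.174) and Cpa3 by -0.53 (SE 0.15, adjusted p = 0.174). Ms4a2 was at -0.69 (adjusted p = 0.388), Prg2 at -0.95 (adjusted p = 0.447), Cebpe at -0.38 (adjusted p = 0.450), Prg3 at -0.70 (adjusted p = 0.480) and Gzmb at -0.61 (adjusted p = 0.514). Those 7 genes had an unadjusted p under 0.05, all lower, against 4.56% of all genes. Mcpt8, at -0.14 (SE 0.22, adjusted p = 0.898), did not. The adjusted p was 0.913 for Fcer1a, higher in value, and 0.988 for Il5ra. No gene of the 10 was lower in every E and CE mouse than in any WT or C mouse, against 0.311% of all genes. With a term for Y-linked transcripts, 56 of 14473 genes and none of the 10 were called. Erythroid markers moved with this comparison in value, all 18 tested being lower with none past the threshold, their sum being 626 to 1090 CPM (WT), 542 to 846 (E), 666 to 730 (C) and 467 to 621 (CE). B-lineage markers were called lower in 10 of 12 tested, with sums of 111 to 223 CPM (WT), 91.0 to 106 (E), 194 to 294 (C) and 87.2 to 92.4 (CE). HSC markers were higher in value in all 14 tested, with 2 called higher, beside the 0.539% of all genes called. The part of these cell types in the values was not tested.

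Whether the transgene effect differed between caspase backgrounds was tested as the difference of both comparisons. None of the 10 genes passed, nor did any of 14473 genes (0%) with edgeR, DESeq2 or limma voom. Without the low-count filter, 39 of 24429 genes and none of the 10 were called. With edgeR, 305 genes (2.11%) had an unadjusted p under 0.05. Prg3 came nearest among the 10, with a log2 difference of 1.25 (SE 0.60, unadjusted p = 0.0547). The adjusted p was 1 for each of the 10. This difference includes CE3, the CE mouse without Y-linked transcripts. With a term for those transcripts the median of the 10 was 0.13, against 0.28 in the main fit. A p that misses the threshold here does not show that the effect was the same on both backgrounds.

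Without the transgene, Prg3 was the gene of the 10 that passed in C against WT. It fell 4.21-fold (log2 -2.07, SE 0.42, adjusted p = 0.0461). The count of 1 called lower compares with 0.297% of all tested genes called lower and 0.656% called in either direction. At an unadjusted p under 0.05, 4 of the 10 were lower, against 12.7% of all genes. Prg2 (4.63-fold lower, log2 -2.21, SE 0.53, adjusted p = 0.0525) and Epx (2.84-fold lower, log2 -1.51, SE 0.40, adjusted p = 0.0617) lay just beyond the threshold. Ms4a2 was at -0.85 (adjusted p = 0.152), Mcpt8 at -0.59 (adjusted p = 0.256) and Fcer1a at -1.04 (adjusted p = 0.428) on the log2 scale. Cpa3 (adjusted p = 0.522), Gzmb (0.796) and Cebpe (0.336) were lower in value, and Il5ra (0.971) was higher. Prg2, Prg3, Epx and Mcpt8 were lower in every C mouse than in any WT mouse, against 13.9% of all genes. The Prg3 call was lost when WT2, C1, C2 or C3 was left out, with adjusted p between 0.0945 and 0.246 and log2 differences between -2.24 and -1.49. The call was also lost with only WT and C in the fit (log2 -2.05, adjusted p = 0.0707), where 19 of 14045 genes were called. With the term for Y-linked transcripts it was lost too (log2 -1.09, adjusted p = 0.585), and 1 of 14473 genes was called. All C mice and no WT mouse had these transcripts, so that term rests on CE3 against CE1 and CE2. Without C1 and C3 together, which leaves C2 alone in group C, Prg3 was at -2.73.

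With the transgene, CE against E had no call among the 10, against 1.58% of all genes. Prg3, Epx and Mcpt8 were lower in all CE than in all E mice, against 15.1% of all genes. Epx, Mcpt8, Prg2 and Fcer1a had an unadjusted p under 0.05, all lower, against 12% of all genes. The log2 differences were -1.63 for Epx (SE 0.42, adjusted p = 0.0614), -1.20 for Mcpt8 (SE 0.31, adjusted p = 0.0606), -1.75 for Prg2 (SE 0.53, adjusted p = 0.0839) and -2.40 for Fcer1a (SE 0.75, adjusted p = 0.0910). Those of Prg3 (-0.83) and Ms4a2 (-0.69) had adjusted p of 0.267 and 0.264. Cpa3 (adjusted p = 0.578) was lower in value, and Gzmb (0.792), Il5ra (0.567) and Cebpe (0.803) were higher in value. Without E1, Fcer1a was at -0.72 and Mcpt8 at -0.52.

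The average of both knockout comparisons (C and CE against WT and E, 6 mice against 6) was added after the data were seen. Here 6 of the 10 genes were called lower, against 11.8% of all genes called lower and 21% called in either direction. The same 6 had an unadjusted p under 0.05, against 18.6% of all genes lower, and Prg3 alone had groups that did not overlap, against 4.64% of all genes. Prg2 fell 3.94-fold (log2 -1.98, SE 0.37, adjusted p = 0.00429), Epx 2.96-fold (log2 -1.57, SE 0.29, adjusted p = 0.00403) and Prg3 2.74-fold (log2 -1.45, SE 0.30, adjusted p = 0.00637). Mcpt8 fell 1.86-fold (log2 -0.90, SE 0.22, adjusted p = 0.0127). Fcer1a (log2 -1.72, SE 0.54, adjusted p = 0.0346) and Ms4a2 (log2 -0.77, SE 0.25, adjusted p = 0.0391), which encode chains of the IgE receptor, fell too. Cpa3 was at -0.22 (SE 0.15, adjusted p = 0.294), and Gzmb (adjusted p = 0.990), Il5ra (0.601) and Cebpe (0.600) did not pass either. The median of the 10 genes was -0.83, against 0.000 over all genes.

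The calls of Prg2, Prg3, Epx and Mcpt8 held when any 1 of the 12 libraries was left out. Fcer1a lost its call without WT2, E1, C1, C3, CE1 or CE2 (adjusted p 0.0728 to 0.134), and without E1 its log2 difference was -0.87. Ms4a2 lost its call without any 1 of 9 libraries (WT2, WT3, E1, E2, C1, C2, C3, CE1 or CE3; adjusted p 0.0515 to 0.124). Leaving out C1 and C3 together ended all 6 calls, with 20 genes called overall; Prg2 was then at -2.61 (adjusted p = 0.0842), Epx at -1.69 (adjusted p = 0.0903) and Prg3 at -1.78 (adjusted p = 0.0885). With a term for Y-linked transcripts no gene of the 10 was called, and 2 of 14473 genes were. Prg2 was then at -0.72 (adjusted p = 0.568), Prg3 at -0.67 (adjusted p = 0.545), Epx at -0.64 (adjusted p = 0.542) and Mcpt8 at -0.72 (adjusted p = 0.406).

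CE3 was the knockout mouse without Y-linked transcripts. It was above both CE1 and CE2 in Prg2, Prg3, Epx, Mcpt8, Gzmb, Fcer1a and Cebpe. In Cpa3, Ms4a2 and Il5ra it was below both. Its Prg2 level of 17.2 CPM, against 4.67 to 6.28 in CE1 and CE2, lay inside the E range of 11.9 to 48.5. Its Epx level of 3.09 CPM, against 1.11 to 1.60 in CE1 and CE2, lay below the E range of 3.32 to 9.29. Mcpt8 in CE3 was 19.7 CPM, below all E mice at 24.6 to 72.6, and Prg3 was 1.87, below 2.02 to 2.5. Cpa3 and Ms4a2 in CE3 were also below all E mice, at 23.7 and 1.61 CPM. The share of all genes in either order was not counted. A single mouse gives no test of the caspase label apart from sex.

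**Figure D3:**
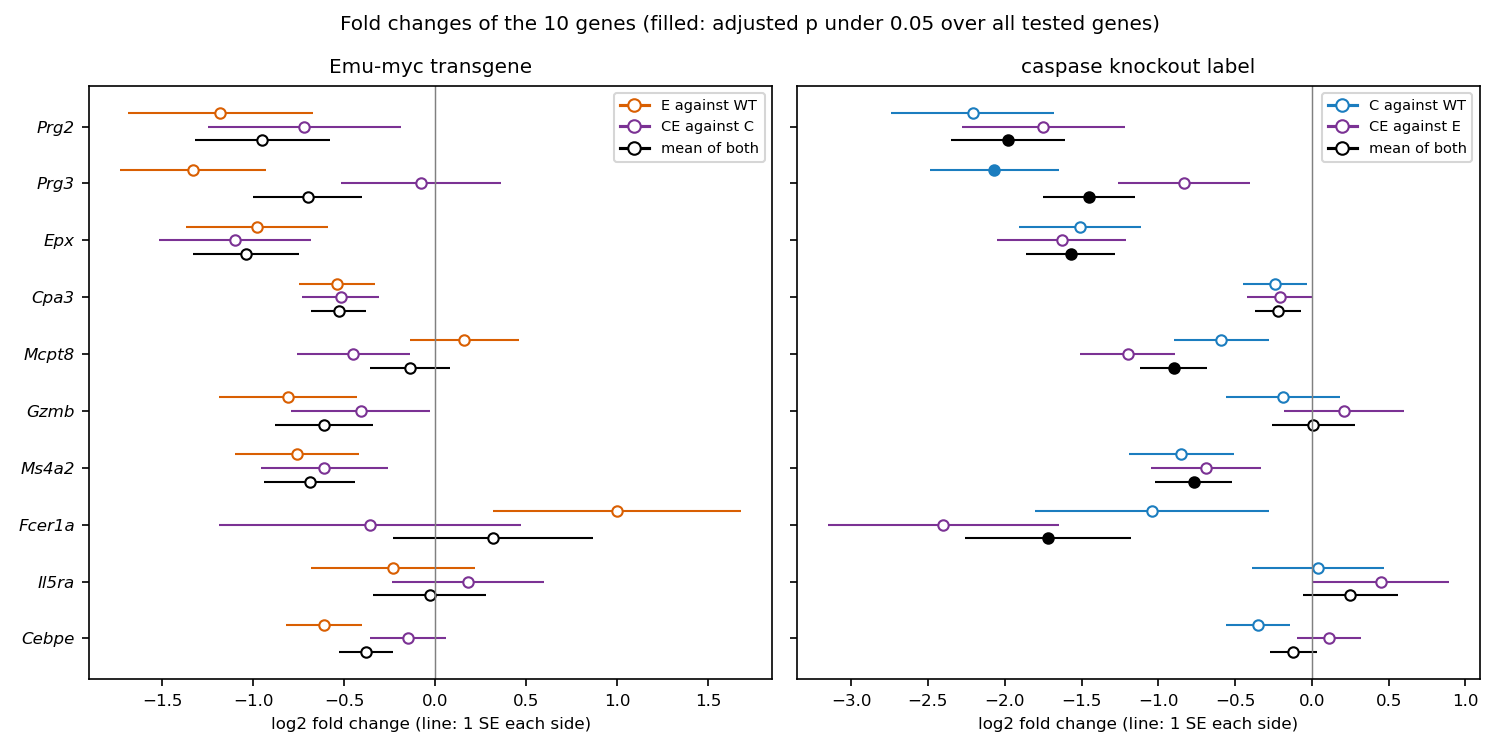
Log2 fold changes of the 10 genes in the transgene comparisons (left) and the knockout comparisons (right), with lines of 1 SE on each side from the edgeR fit and filled points for genes past the adjusted threshold. On the left no point is filled. On the right Prg3 is filled in C against WT, and Prg2, Prg3, Epx, Mcpt8, Fcer1a and Ms4a2 are filled in the mean of both, between -1.98 and -0.77.

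Marker lists of other cell types were counted in the same knockout average, beside the 11.8% of all genes called lower and 21% called in either direction. Monocyte and macrophage markers, led in level by Csf1r and Ly6c2, were called lower in 7 of 16 tested, with sums of 407 to 608 CPM in WT and E and 362 to 538 in C and CE. T and NK markers were called lower in 3 of 14, with sums of 147 to 249 CPM in WT and E and 174 to 212 in C and CE. Neutrophil markers, led by Mpo and Prtn3, were called lower in 2 of 13, with sums of 8430 to 13400 CPM in WT and E and 9280 to 13000 in C and CE. HSC markers were called higher in 4 of 14. Erythroid markers (led by Car2 and Tfrc) were called lower in 2 of 18, megakaryocyte markers (Pf4 and Itga2b) in 1 of 12 each way and B-lineage markers (Cd79b and Blnk) higher in 2 of 12. The shares of the erythroid, neutrophil and megakaryocyte lists are near those of all genes. None of the markers in these lists was at 0 in all libraries. Their part in the lower granule genes was not tested.

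The wider lists covered other granule and effector genes, receptor and signalling genes, and transcription factors. In the knockout average they had 3 of 20, 4 of 24 and 4 of 24 tested genes called in either direction. Each share was below the 21% of all genes. Called lower were 3 of 20, 2 of 24 and 1 of 24, against 11.8% of all genes. The receptor and transcription factor lists are not confined to basophils, eosinophils and mast cells. Kit and Gata2 in them are also among the HSC markers used here. Of 30 other granule and effector genes, 20 could be tested, and in the transgene comparison none passed. The smallest p there belonged to Hdc, which makes histamine (log2 -0.42, adjusted p = 0.0951), Alox5, which starts leukotriene synthesis (log2 -0.75, adjusted p = 0.106), and Slc18a2, which loads histamine into granules (log2 0.33, adjusted p = 0.263). In the knockout average, Prss34, a basophil and mast cell protease, fell (log2 -1.90, SE 0.51, adjusted p = 0.0188), as did the eosinophil ribonuclease Ear2 (log2 -1.40, adjusted p = 0.0480) and the granule proteoglycan Srgn (log2 -0.30, adjusted p = 0.0168). Prss34 was not called without E1, where it was at -0.89, or without CE2. Ear2 was called in 3 of the 12 fits that each left out 1 library, and Srgn in 11 of 12, with C3 the exception. The median of the 20 genes was -0.12 in the knockout average and -0.11 in the transgene comparison.

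Among 26 receptor and signalling genes, 24 were tested. Jak2, the kinase behind the interleukin-3 and interleukin-5 receptors, rose with the transgene (log2 0.66, SE 0.09, adjusted p = 0.00121), from 48.4 to 61.6 CPM in WT and C to 77.3 to 98.7 in E and CE. Its call held in all 20 alternatives. In CE against C Jak2 rose as well (log2 0.66, adjusted p = 0.0383). That call was lost when any 1 of those 6 mice was left out, while the log2 difference stayed at 0.60 to 0.77. Of 18 other tested genes within 1000 kb of Jak2 on chromosome 19, 13 were called higher in the transgene comparison. The median log2 difference of the 18 was 0.65. The part of that segment in the Jak2 value was not tested. Siglecf, an eosinophil surface lectin, was at -0.36 (adjusted p = 0.169) and Csf2rb2, a chain of the mouse interleukin-3 receptor, at 0.30 (adjusted p = 0.417) in the transgene comparison. In the knockout average, the eosinophil chemokine receptor Ccr3 fell (log2 -1.18, adjusted p = 0.0088) and held its call in all 12 fits without 1 library. Fcer1g, the signalling chain of the IgE receptor, fell (log2 -0.46, adjusted p = 0.0216), while the kinase Syk (log2 0.28, adjusted p = 0.0178) and Stat5b (log2 0.23, adjusted p = 0.0314) rose. Fcer1g lost its call without WT2, E1, C3 or CE2, Syk without C3, and Stat5b without any 1 of 7 libraries.

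All 24 transcription factor list genes were tested. Trib1, a pseudokinase that promotes degradation of C/EBP alpha and is needed for normal eosinophil numbers in mice, fell with the transgene (log2 -1.31, SE 0.25, adjusted p = 0.0256). Trib1 was at 26.2, 29.2 and 70.8 CPM in WT2, WT3 and WT4, at 20, 11.4 and 9.56 in E1, E2 and E3, at 62.3, 47.7 and 44.0 in C1, C2 and C3, and at 34.8, 21.2 and 20.5 in CE1, CE2 and CE3. E lay below WT and CE below C, while the call was kept in 6 of 12 fits that left out 1 library. Hes1 (log2 -0.63, adjusted p = 0.122) and Lmo4 (log2 -0.21, adjusted p = 0.152) came next. In the knockout average Zfpm1, a cofactor of GATA proteins, rose (log2 0.52, adjusted p = 0.00578) and kept its call in all 12 such fits. Tal1 (log2 0.17, adjusted p = 0.0480) and Mybl2 (log2 0.25, adjusted p = 0.0180) rose and Id2 fell (log2 -0.49, adjusted p = 0.0177). None of these calls in the knockout average, in any of the 3 lists, was kept with the term for Y-linked transcripts or without C1 and C3 together. Without C1 and C3 the adjusted p was 0.0959 for Zfpm1 and 0.115 for Ccr3, and Trib1 lost its transgene call (log2 -1.25, adjusted p = 0.293).

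The 10 genes did not vary as 1 block from mouse to mouse. Of 45 pairs, 39 had a positive Pearson r of log2 CPM over the 12 mice, with a median of 0.37. After Benjamini-Hochberg adjustment of two-sided permutation p over the 45 pairs, 13 passed by r and 12 by Spearman's rho. Prg2 and Epx, on different chromosomes, gave r = 0.95 and rho = 0.97 (permutation test, adjusted p = 0.00045 for both, with 1e-05 the smallest p the permutations can give). Without the 2 mice farthest from the median of Prg2, r was 0.91, and within groups 0.87. Prg2 and its neighbour Prg3 gave r = 0.91 and rho = 0.92 (adjusted p = 0.00045 and 0.00165), 0.87 without 2 mice and 0.73 within groups. Mcpt8 and Fcer1a gave r = 0.88 and rho = 0.78 (adjusted p = 0.00562 and 0.0156), 0.61 without the 2 farthest mice and 0.82 within groups. Cpa3 and Prg2 did not pass, with r = 0.40 and rho = 0.39 (adjusted p = 0.396 and 0.470), and within groups r was -0.22. The difference between this r and that of Prg2 with Epx was not tested. The mice fall into 4 groups, and the permutations ran across all 12 mice. Their p, and the counts of pairs, therefore also reflect differences between group means. The within-group values are the ones free of the group means, and no p is given for them. No share over pairs of all genes is given here.

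**Figure D4:**
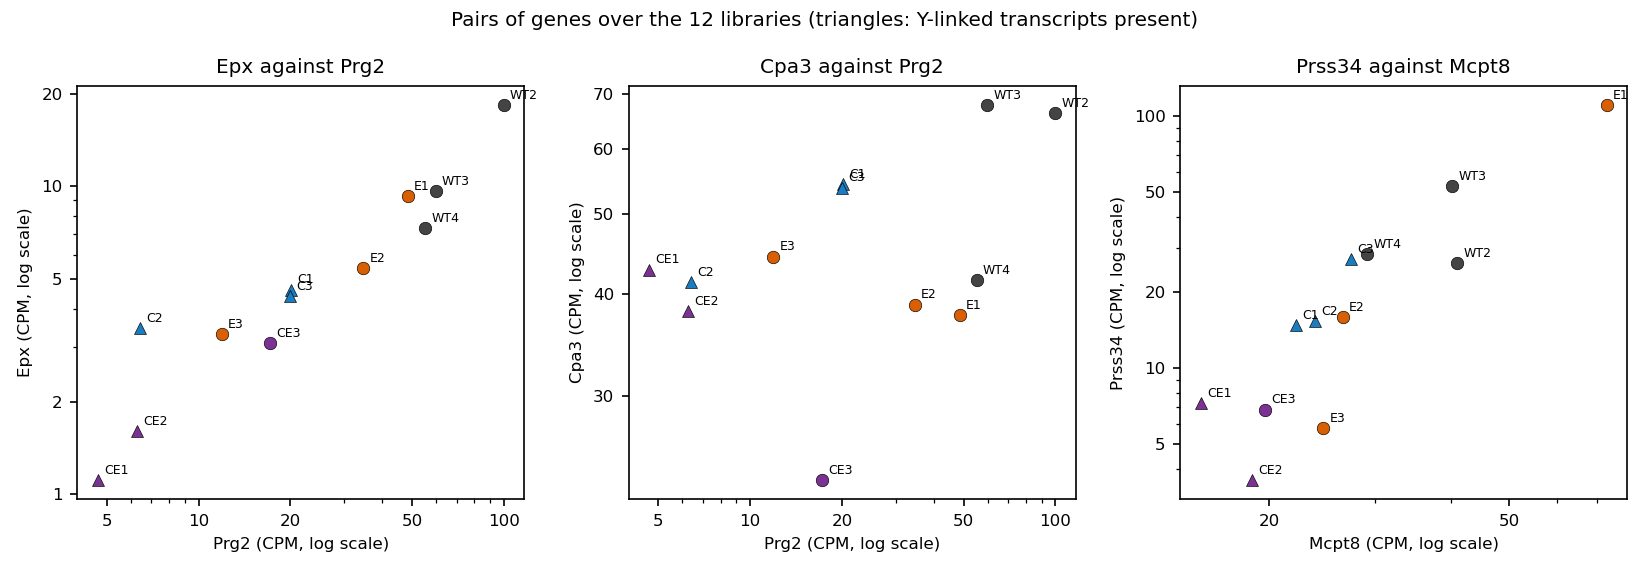
Level of Epx against Prg2, Cpa3 against Prg2, and Prss34 against Mcpt8 (CPM, log axes), with 1 point per mouse, coloured by group and drawn as a triangle where Y-linked transcripts are present. Epx rises with Prg2 (r = 0.95), Cpa3 against Prg2 has r = 0.40, which did not pass, and E1 is the top right point for Prss34 and Mcpt8.

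The genes most like the mean standardized profile of the 10, by Pearson r of log2 CPM over the 12 libraries, were Csrp3 (r = 0.958), Slc20a1 (0.940), Snora65 (0.938), Cpsf3 (0.927), Snord100 (0.920), Pf4 (0.906), Snhg15 (0.900) and Il17rb (0.899). Csrp3 averaged 6.06 CPM for WT, 3.31 for E, 3.63 for C and 2.17 for CE. These r describe the same libraries in which group, sex and depth are shared, and no p is given.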

How the data were processed

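Sorted HSC RNA from 12 mice was measured as 1 library each. The authors deposited raw counts per gene, listed by NCBI Gene number and not normalized. STAR 2.5.3 and mm10 are named in the submitters' processing notes; no source used here names the read counter, annotation, strandedness or filters. RefSeq (GRCm38.p6) gave a symbol to 25275 of 27179 gene numbers.

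The counts were fitted with edgeR 4.0.16 (R 4.3.3): TMM factors, filterByExpr by group, group means, all 12 libraries, and two-sided quasi-likelihood F tests of 14473 genes, adjusted after Benjamini-Hochberg with a threshold of 0.05. CPM are counts scaled to the TMM-adjusted library total. The biological coefficient of variation was 0.139. Correlations used 100000 permutations of log2 CPM with a prior count of 2.

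The 10 genes, the lists and their comparisons were chosen with earlier results of these data known. All 10 are named in every comparison, some in the test of the difference only through a shared adjusted p. From 3 wider lists, genes past the threshold and up to 3 with the smallest p in the transgene comparison are named. From lists of other cell types, counts are given, with summed CPM and the 2 most abundant markers for some of the lists. The 8 most like genes needed a mean log2 CPM of at least 1 and had no predicted or clone name as their symbol. The knockout average and the removal of C1 and C3 together were added after the data were seen.

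Alternatives used RLE factors, no low-count filter, at least 1 CPM in 6 libraries, DESeq2 1.42.0, limma 3.58.1 voom with quality weights, only the groups compared, a replicate block, a term for Y-linked transcripts (summed level over 1 CPM), and each library left out. Libraries held 24529611 to 34065910 counts, and Fcer1a and Il5ra rested on the fewest, 5 to 88 and 8 to 24 in a library. Genes within 1000 kb of Jak2 were counted after the data were seen.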

Additional observations from a re-analysis of the deposited data

How the results depend on the processing

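With no low-count filter, 24429 genes were tested, with prior degrees of freedom of 147 against 6.83. Of the 10 genes, 5 were then called in E against WT, 2 in CE against C and 5 in C against WT. In CE against E 4 were called, and in the transgene average 4. Over all genes the calls were 217, 203, 1554, 1172 and 339 in that order. In the difference, 39 genes and none of the 10 were called. The all-gene median moved to 0.130 in C against WT. DESeq2 called 3, 2 and 1 and limma voom 4, 2 and 2 for C against WT, for CE against E and for the transgene average. Over all 14473 genes, DESeq2 called 1206, 1182 and 208, and limma voom 1773, 1392 and 177. The main fit called 95, 229 and 78 of all genes there. Fitting only the groups compared gave 0 in C against WT and 1 in CE against E, beside 19 of 14045 and 843 of 13899 genes. With the term for Y-linked transcripts, 0 were called in C against WT and 0 in the knockout average, beside 1 and 2 of all 14473 genes. That term moved the C against WT median to -0.46. Without C1 and C3 together, which leaves C2 alone in group C, the medians were -0.62 and -0.91. Without C1 and C3, Prg2 and Prg3 in CE against C reversed to 0.55 and 0.58. The replicate block called 4, 2 and 1 in C against WT (median -1.01), CE against E and the transgene average. Over all 14473 genes the block called 2045, 1475 and 116. It turned Mcpt8 in E against WT to -0.20, as limma voom did (-0.30). The labels do not say that replicate numbers pair the mice. Same-numbered libraries deviated with r between -0.244 and 0.166 over 15 pairs, and 2 libraries were closest to their own number. Shared handling by number was not tested. Leaving out 1 library at a time gave medians of -0.73 to -0.41 in E against WT, -0.91 to -0.50 in CE against E and -0.15 to 0.40 in the difference. It gave 0 to 4 calls in C against WT, where 7 to 2258 of all genes were called. In the transgene average it gave 0 to 1, where 36 to 109 of all genes were called. In E against WT, Fcer1a ranged from -0.67 to 1.51 and Mcpt8 from -0.51 to 0.42, and in CE against C Prg3 ranged from -0.50 to 0.26. The cause of these changes was not tested. Of the other values, 615 single-gene values and 204 counts or medians kept their direction and side of the threshold or moved within the set limits. Fcer1a and Il5ra were not tested under 1 CPM in 6 libraries.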

Other observations

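Genes of this paragraph were chosen after their values were seen. E1 held not only the highest Mcpt8 and Fcer1a but also the highest Prss34 (111 CPM, against 3.60 to 52.9 elsewhere), Ear1 (2.96 CPM), Ear2 (3.37), Ear6 (4.04), Alox15 (1.58) and Cd200r3 (1.33 CPM) of the 12 libraries. Prg2, Prg3, Epx and Cpa3 were not highest in E1, where Prg2 was at 48.5 CPM against 99.8 in WT2. The mast cell tryptase Tpsb2 was at 1.60 CPM in WT4 and 1.84 in CE3 and at most 0.414 CPM in the other 10 libraries. The mast cell chymase Cma1 was highest in the same 2 libraries, at 3.16 and 3.15 CPM.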
